A study of Pangasianodon hypophthalmus with 14 samples.

Results

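Genes of the thyroid hormone axis were followed through early development of tra catfish (Pangasianodon hypophthalmus), an air-breathing catfish farmed in Vietnam. The axis was taken as 8 gene names: tg and tpo for hormone synthesis, tshb and tshr for the pituitary signal and its receptor, dio1 and dio2 for hormone activation, and thra and thrb for the nuclear receptors. Of the 21656 genes in the count table, 4 carry one of these names, namely tg, tpo, dio2 and thrb, and no row is named tshb, tshr, dio1 or thra. Of the rows with only a locus identifier, RefSeq gives the symbol tshr to LOC113528721, and the related symbols tshba, thrab and dio3b to LOC113531113, LOC113527477 and LOC113532162. These rows are described beside the 4 genes, together with other genes of the axis, 59 in all.

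RNA was sequenced from whole bodies at 7 stages, counted in days post fertilization (dpf). They were 2, 4, 6 and 8 dpf, then daily from 9 to 11 dpf, with 2 libraries at each stage and 14 in all. By their labels the groups differed in age alone, and no treatment, genotype or strain was given for any of them. Each replicate was described in the study's methods as a pool of 4 embryos or larvae. Since the whole body was sampled, more cells of a type and more RNA per cell cannot be told apart in any value below.

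In vertebrates, the follicle cells of the thyroid take up iodide, couple it to thyroglobulin with thyroid peroxidase, and release mainly thyroxine from this store. Thyrotropin from the pituitary drives these steps through its receptor. In target tissues, outer ring deiodination by the deiodinase Dio2 turns thyroxine into the more active triiodothyronine, whereas Dio3 inactivates both hormones, and the receptors Thra and Thrb bind triiodothyronine at their target genes. Teleost eggs carry maternal thyroid hormone in the yolk, and the hormone governs the larva to juvenile transition of many teleosts.

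Library totals ranged from 4112131 to 11609823 counts, and 3 counts, taken as the detection floor, corresponded to 0.258 to 0.730 CPM (counts in 1e6) of a library's total. Levels are given below as CPM after TMM scaling. Stages were compared with the quasi-likelihood test of edgeR in a fit of all 14 libraries, in which 19310 genes passed the filter on low counts. A gene was called changed at a Benjamini-Hochberg adjusted p under 0.05 with a log2 fold change beyond 1 in size. The libraries of a stage differed to unlike degrees. Between them the chi-square per gene came to 18.7 (2 dpf), 29.6 (4 dpf), 3.69 (8 dpf) and 3.84 (10 dpf), but only to 1.13 (6 dpf), 1.15 (9 dpf) and 1.29 (11 dpf), where sampling noise alone gives 1. The sources do not settle whether the libraries of a stage came from separate pools, so p-values measure the spread between these libraries, which may be technical. Calls are therefore also given with each pair of 6, 9 and 11 dpf summed into 1 library.

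The gene tg encodes thyroglobulin, the protein on which thyroid hormone is made and stored. The libraries of 2 dpf held 14.5 and 21.3 CPM of it, those of 4 dpf 9.84 and 16.4 CPM, those of 6 dpf 37.2 and 38.1 CPM, and those of 8 dpf 42.6 and 30.5 CPM. Those of 9 dpf held 37.2 and 41.8 CPM, those of 10 dpf 40.8 and 62.9 CPM, and those of 11 dpf 72.7 and 81.0 CPM. The libraries thus fell into a low set at 2 and 4 dpf, an intermediate set at 6 to 10 dpf whose neighbouring stages in order of level overlapped, and a high pair at 11 dpf that overlapped no other stage. Level rose 2.78-fold at 6 dpf against 4 dpf (log2 fold change 1.48 ± 0.25, SE; edgeR adjusted p = 0.000363) and was called changed, in a comparison where 11.3% of all genes tested were called. At 11 dpf tg was 4.27-fold higher than at 2 dpf (log2 fold change 2.09 ± 0.23, SE; edgeR adjusted p = 2.03e-06), where 20.8% of all genes were called. The last step, 11 dpf against 10 dpf, had a log2 fold change of 0.57 ± 0.22 (SE; edgeR unadjusted p = 0.0183, adjusted p = 0.152) and was not called. Both calls of tg held in all 23 alternative fits, with log2 fold changes of 1.20 to 1.95 for 6 dpf against 4 dpf and 1.82 to 2.399 for 11 dpf against 2 dpf. With the pairs summed, their adjusted p-values were 0.0137 and 0.000346.

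**Figure D1:**
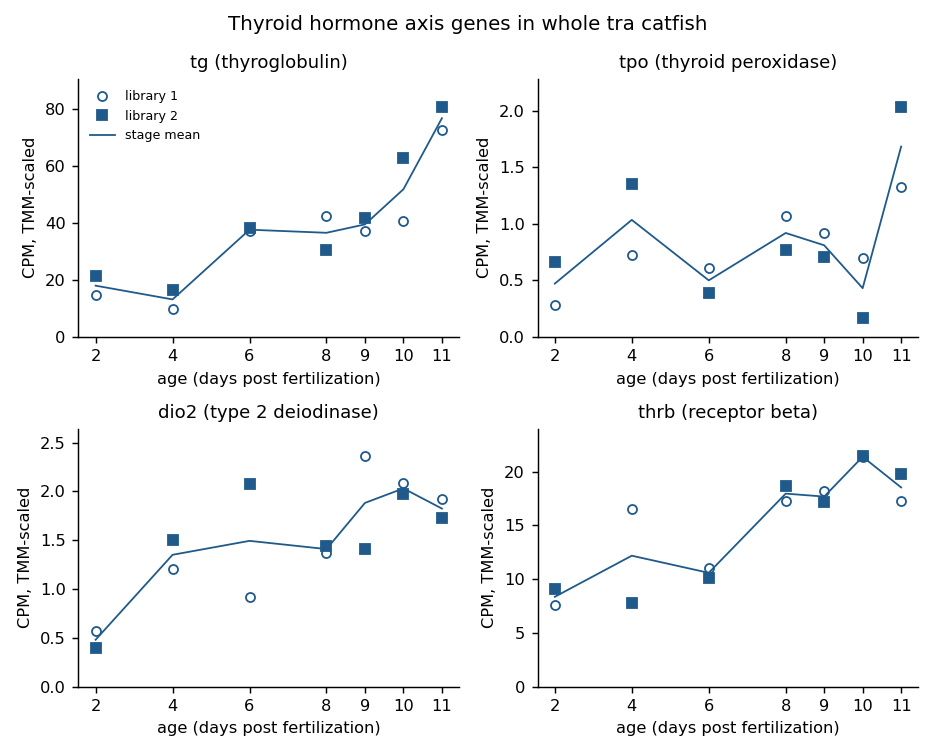
Levels of tg, tpo, dio2 and thrb in TMM-scaled CPM (vertical axes, from 0) against age in dpf, with an open circle for library 1, a filled square for library 2 and a line through the stage means. In tg both libraries of 11 dpf lie above all others, in dio2 both libraries of 2 dpf lie lowest, and tpo stays at or under 2.04 CPM throughout.

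Thyroid peroxidase, the product of tpo, iodinates thyroglobulin and couples its iodinated tyrosines. Counts of tpo were too few for the filter, with 82 over all 14 libraries. The libraries of 2 dpf held 2 and 5 counts, those of 4 dpf 3 and 9, those of 6 dpf 6 and 3, and those of 8 dpf 7 and 8. Those of 9 dpf held 7 and 5 counts, those of 10 dpf 4 and 1, and those of 11 dpf 9 and 13. The highest stage mean was that of 11 dpf, at 1.33 and 2.04 CPM, yet the lower of its libraries lay below the higher library of 4 dpf (1.35 CPM), and 4 of the 14 libraries were at or under 3 counts. Without the filter, the log2 fold change of tpo at 11 dpf against 2 dpf was 1.77 (edgeR unadjusted p = 0.00933, adjusted p = 0.0279), and over the 7 stages the adjusted p was 0.0791. In DESeq2 it was 1.86 for the same stages with an adjusted p of 0.0843, so that tpo passed the thresholds or not according to the tool.

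Other genes of synthesis and of iodide handling followed tg only in part. Of the 6 such genes in the table, tg and tpo included, 5 were tested, and iyd was the other one called in a comparison of stages. Like tg, it was called at 6 dpf against 4 dpf and at 11 dpf against 2 dpf, where 11.3% and 20.8% of all genes were called. It encodes the iodotyrosine deiodinase, which recovers iodide from unused iodotyrosines, and is known from liver and kidney as well as thyroid. It had 14.3 and 13.9 CPM at 6 dpf, against 0.960 and 4.65 CPM at 4 dpf, so the libraries of these stages did not overlap (log2 fold change 2.15 ± 0.33, SE; edgeR adjusted p = 0.000139). At 11 dpf it had 11.97 and 11.77 CPM, against 3.81 and 3.69 CPM at 2 dpf (1.66 ± 0.32, SE; edgeR adjusted p = 0.000438). After 6 dpf iyd stayed between 10.7 and 16.5 CPM, while tg reached its highest level at 11 dpf. The sodium iodide symporter gene slc5a5, which imports iodide, stood at 2.07 and 1.57 CPM at 11 dpf, against 1.55 and 1.98 CPM at 2 dpf (log2 fold change 0.04 ± 0.48, SE). The gene duox1, an oxidase that supplies the peroxide used by thyroid peroxidase, had a log2 fold change of -0.19 ± 0.32 (SE) for the same stages, and neither was called. Over the 7 stages duox1 (edgeR F test, adjusted p = 0.00461) and its relative duox2 (0.048) were under 0.05, as were 75.3% of all genes tested, while slc5a5 was not (0.0802). Levels of duox1 were 5.50 and 4.74 CPM at 2 dpf, 1.22 and 2.60 CPM at 8 dpf, and 4.29 and 4.71 CPM at 11 dpf.

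Transcription factors of the thyroid had calls in the lower direction alone. Of 8 such genes tested, 3 fell and none rose at 11 dpf against 2 dpf, with a median log2 fold change of -0.67, against -0.06 over all genes. In that comparison 20.8% of all genes were called in either direction, 1587 of 19310 lower and 2438 higher. The other 5 were not called there, and 2 of the 8 had a positive log2 fold change, up to 0.88. Over the 7 stages 2 of the 8, pax8 and pax2b, had an adjusted p under 0.05 (edgeR F test), against 75.3% of all genes. The third gene called lower at 11 dpf, nkx2-4, did not (0.0828). The paired box factor pax8, which follicle cells need but kidney, ear and midbrain-hindbrain tissue also express, had 1.33 and 2.35 CPM at 11 dpf, against 3.81 and 5.53 CPM at 2 dpf (log2 fold change -1.35 ± 0.42, SE; edgeR adjusted p = 0.016). That call was lost when replicate 2 of 2 dpf (-1.05, adjusted p = 0.128) or replicate 1 of 11 dpf (-0.99, adjusted p = 0.162) was left out, and in DESeq2 (adjusted p = 0.065). Its relative pax2b fell by 1.797 ± 0.35 (SE) on the log2 scale (edgeR adjusted p = 0.000579), and the homeobox gene nkx2-4 fell by 1.40 ± 0.48 (SE; edgeR adjusted p = 0.0269). The call of nkx2-4 was lost without either library of 2 dpf (adjusted p 0.0618 and 0.0851), without replicate 1 of 11 dpf (-0.89, adjusted p = 0.244), with the pairs summed (0.0671) and in DESeq2 (0.124). The summed level of the 8 genes was 9.46 to 11.9 CPM at 11 dpf, against 18.7 to 21.9 CPM at 2 dpf, and none of them was at 0 in both libraries of a stage. Much of the fall in this sum lay in pax8 and pax2b. The latter had 6.35 and 6.45 CPM at 2 dpf, against 1.18 and 2.51 CPM at 11 dpf. At 4 dpf against 2 dpf, 2 of the 8 genes were called, both lower, where 19.8% of all genes were called. They were pax8 (-1.66, edgeR adjusted p = 0.00818) and pax2b (-2.92, adjusted p = 5.21e-05). That call of pax8 was lost without replicate 2 of 2 dpf (-1.37). That of pax2b held in all 22 alternatives in which it was tested. The sum was 10.88 to 12.04 CPM at 6 dpf, against 8.40 to 9.45 CPM at 4 dpf. Between these stages 6 of 8 genes were positive, with a median log2 fold change of 0.42, against -0.02 over all genes. Of the 8, 0 were called there, where 11.3% of all genes were called.

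The thyrotropin beta subunit, by which the pituitary controls the thyroid, is represented by tshba. Its level was 0.988 and 0.922 CPM at 2 dpf, 7.44 and 12.8 CPM at 4 dpf, 3.76 and 3.49 CPM at 6 dpf, and 1.68 and 1.64 CPM at 8 dpf. From 9 to 11 dpf it stayed between 0.984 and 2.22 CPM. Both libraries of 4 dpf therefore stood above those of every other stage, and the pair at 6 dpf came next. The rise at 4 dpf against 2 dpf was 10.7-fold (log2 fold change 3.43 ± 0.35, SE; edgeR adjusted p = 8.75e-07), in a comparison where 19.8% of all genes were called. At 6 dpf tshba was 2.85-fold lower than at 4 dpf (log2 fold change -1.51 ± 0.27, SE; edgeR adjusted p = 0.000448), and both of these calls held in all 22 alternatives in which tshba was tested. At 8 dpf it was lower again than at 6 dpf (-1.13 ± 0.34, SE; edgeR adjusted p = 0.0246), but this call was lost in DESeq2 (adjusted p = 0.096), with the pairs summed (0.148) and without any 1 of the 4 libraries of these stages (0.0846 to 0.153).

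Genes of other pituitary hormones rose at the same stage as tshba. Of 4 tested, 3 were called higher at 4 dpf than at 2 dpf, namely the growth hormone gene gh1 (log2 fold change 3.01; edgeR adjusted p = 0.000114), the corticotropin precursor gene pomc (2.49; adjusted p = 0.000585) and its paralog pomcb (2.28). In that comparison 19.8% of all genes were called. Without replicate 2 of 4 dpf, a fit added after the data were seen, gh1 stood at 1.48 (adjusted p = 0.00225), while the calls of pomc (1.10, adjusted p = 0.0854) and pomcb (0.50, adjusted p = 0.691) were lost. The summed level of all 9 such genes in the table was 21.4 to 93.6 CPM at 4 dpf, against 8.43 to 12.8 CPM at 2 dpf, and 2 of the 9 were at 0 in both libraries of 4 dpf. The libraries of 4 dpf thus differed from each other in these genes more than in tshba, and the part of pituitary content in the level of tshba was not tested. At 6 dpf against 4 dpf, where tshba was called lower, none of the 4 tested genes was, and 11.3% of all genes were called. All 4 had negative log2 fold changes there, from -0.966 to -0.008 with a median of -0.52. At 8 dpf against 6 dpf gh1 (log2 fold change -2.65; edgeR adjusted p = 0.00143) and pomc (-1.85; adjusted p = 0.00544) were called lower, where 5.74% of all genes were called.

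**Figure D2:**
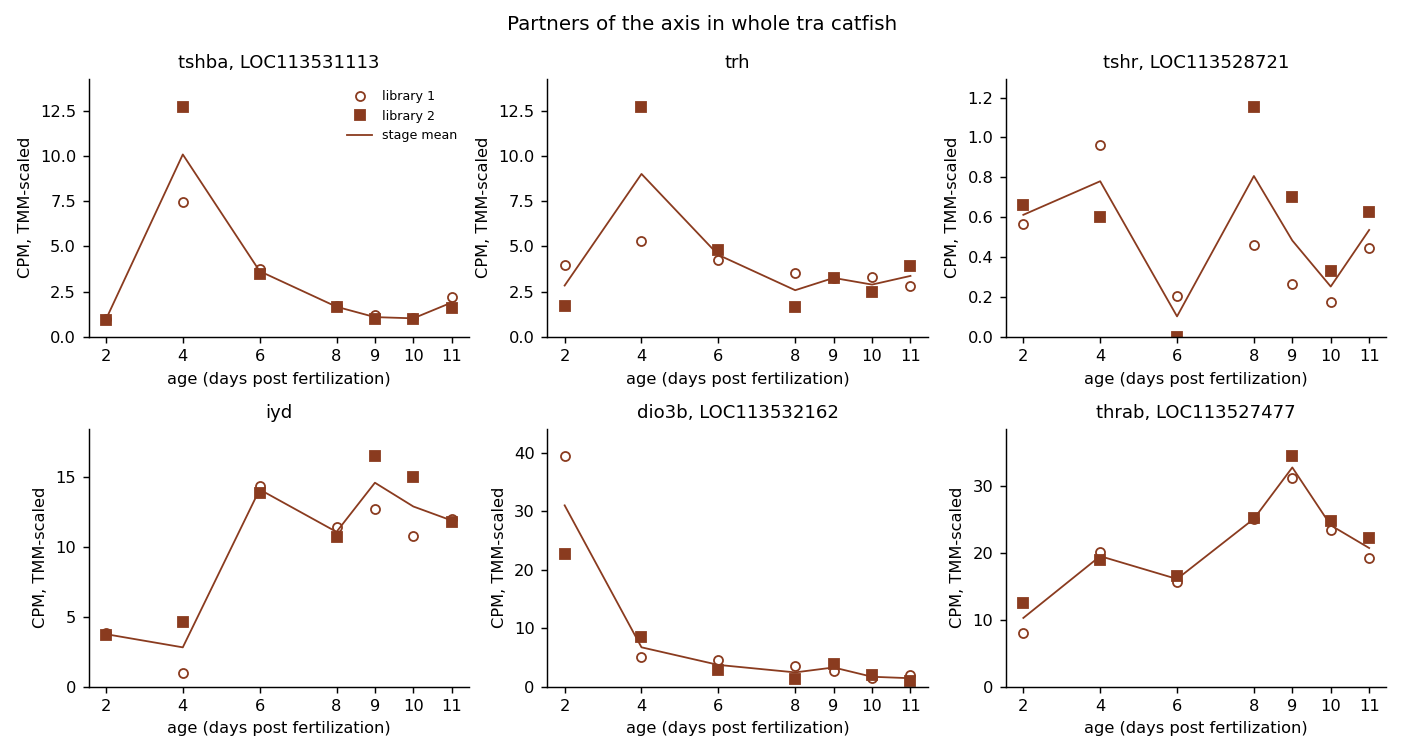
Levels of tshba, dio3b, thrab and other partners of the axis in TMM-scaled CPM (vertical axes, from 0) against age in dpf, with an open circle for library 1, a filled square for library 2 and a line through the stage means. The highest values of tshba stand at 4 dpf (7.44 and 12.8 CPM) and those of dio3b at 2 dpf (39.4 and 22.7 CPM).

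Upstream of thyrotropin, trh, the precursor of thyrotropin-releasing hormone, had 5.28 and 12.8 CPM at 4 dpf, against 3.95 and 1.71 CPM at 2 dpf (log2 fold change 1.76 ± 0.41, SE; edgeR adjusted p = 0.00247). Without replicate 2 of 4 dpf, its log2 fold change was 0.93 with an adjusted p of 0.141, so that this library decided the call. The gene tef, named for a thyrotroph embryonic factor and also a clock-regulated gene of many tissues in zebrafish, rose by 2.02 ± 0.20 (SE) on the log2 scale at 4 dpf against 2 dpf (edgeR adjusted p = 5.03e-07) and fell by 1.46 ± 0.19 (SE) at 6 dpf against 4 dpf (edgeR adjusted p = 2.45e-05). Of the 13 genes of pituitary and hypothalamus in the table, 8 were tested. The gene of thyrotropin's alpha subunit, cga, was not, with 33 counts over all 14 libraries and at most 6 in a library. Among the 8, tshba, trh and tef were the 3 called higher at 4 dpf against 2 dpf, where 19.8% of all genes were called. The same 3 were called lower at 6 dpf against 4 dpf, where 11.3% of all genes were called. That later call of trh (-1.07; edgeR adjusted p = 0.0356) was lost in 9 alternatives. Among them were the fit of only these 2 stages (-1.06, edgeR adjusted p = 0.139) and that without replicate 2 of 4 dpf (-0.21).

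The thyrotropin receptor, tshr (LOC113528721), had 51 counts over all 14 libraries and did not pass the filter. It had at most 12 counts in a library, 7 libraries were at or under 3 counts, and 1 library of 6 dpf was at 0, which allows a level of up to 0.407 CPM of its total, counting error only. At so few counts its tests differed with the tool. At 8 dpf, with 3 and 12 counts, against 6 dpf, with 2 and 0 counts, edgeR without the filter gave tshr an adjusted p of 0.0359, while DESeq2 gave an unadjusted p of 0.028 and no adjusted p. At 6 dpf against 4 dpf, with 4 counts in each library of 4 dpf, the adjusted p of tshr was 0.0734 in edgeR without the filter and 0.132 in DESeq2 (unadjusted p = 0.0222 and 0.0406).

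Transcripts of the activating and the inactivating deiodinase differed in opposite directions at 11 dpf against 2 dpf. The gene dio2, whose enzyme makes triiodothyronine, had 0.565 and 0.395 CPM at 2 dpf, 1.20 and 1.50 CPM at 4 dpf, 0.915 and 2.07 CPM at 6 dpf, and 1.37 and 1.44 CPM at 8 dpf. It had 2.36 and 1.41 CPM at 9 dpf, 2.08 and 1.98 CPM at 10 dpf, and 1.92 and 1.73 CPM at 11 dpf. The pair at 2 dpf, with 4 and 3 counts, lay below all later libraries, and the stages from 4 to 11 dpf overlapped their neighbours in order of level. At 11 dpf, with 13 and 11 counts, dio2 was 3.73-fold higher than at 2 dpf (log2 fold change 1.90 ± 0.56, SE; edgeR adjusted p = 0.0109). It was not called at 4 dpf against 2 dpf (1.50 ± 0.61, SE; edgeR unadjusted p = 0.0257, adjusted p = 0.057). The call at 11 dpf was lost when replicate 2 of 2 dpf (1.66, adjusted p = 0.0733) or replicate 1 of 11 dpf (1.82, adjusted p = 0.0599) was left out, and held in the other 20 of 22 alternatives, including the pairs summed (adjusted p = 0.022).

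The inactivating deiodinase gene dio3b had 39.4 and 22.7 CPM at 2 dpf, 5.04 and 8.40 CPM at 4 dpf, and 4.57 and 2.85 CPM at 6 dpf. It then lay between 1.35 and 3.80 CPM at 8 and 9 dpf, between 1.39 and 1.98 CPM at 10 dpf, and at 1.92 and 0.941 CPM at 11 dpf. No library after 2 dpf came near the pair of that stage. At 4 dpf dio3b was 4.42-fold lower than at 2 dpf (log2 fold change -2.14 ± 0.33, SE; edgeR adjusted p = 6.24e-05), and at 11 dpf it was 21.2-fold lower than at 2 dpf (-4.40 ± 0.41, SE; edgeR adjusted p = 2.78e-07). Both calls held in all 22 alternatives in which dio3b was tested.

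Set side by side within a library, dio2 made up 1.41% (95% Wilson interval 0.55 to 3.58) and 1.71% (0.58 to 4.92) of the counts of dio2 and dio3b together at 2 dpf. At 4 dpf the shares were 19.2% and 15.2%, and the lowest lower bound of any library after 2 dpf was 8.44%. At 11 dpf they were 50.0% and 64.7%. All 12 later libraries had intervals above those of the pair at 2 dpf. This share was chosen after the values were seen, it is not scaled by gene length, and its intervals cover counting error only.

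**Figure D3:**
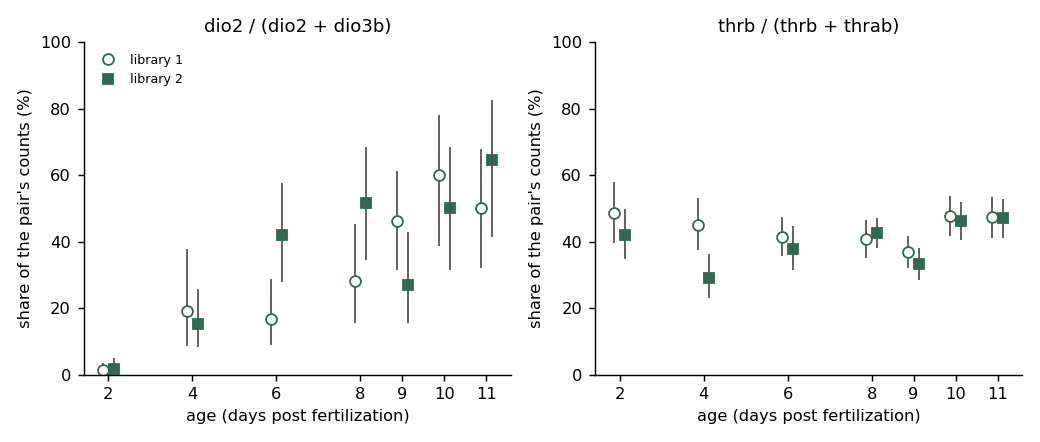
Share of dio2 in the counts of dio2 and dio3b, and of thrb in the counts of thrb and thrab, in percent (vertical axes) against age in dpf, per library, with an open circle for library 1 and a filled square for library 2. Bars are 95% Wilson intervals for counting error, and the share of dio2 lies under 2% in both libraries of 2 dpf and at 50.0% and 64.7% at 11 dpf.

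The receptor gene thrb had 7.62 and 9.09 CPM at 2 dpf, 16.6 and 7.80 CPM at 4 dpf, 11.1 and 10.1 CPM at 6 dpf, and 17.2 and 18.7 CPM at 8 dpf. It had 18.2 and 17.2 CPM at 9 dpf, 21.36 and 21.41 CPM at 10 dpf, and 17.3 and 19.8 CPM at 11 dpf. All libraries of 8 to 11 dpf lay above those of 2, 4 and 6 dpf, and the pair of 4 dpf was the widest, reaching from the level of 2 dpf nearly to that of 8 dpf. At 11 dpf thrb was 2.21-fold higher than at 2 dpf (log2 fold change 1.14 ± 0.24, SE; edgeR adjusted p = 0.000906). At 8 dpf against 6 dpf its log2 fold change was 0.76 ± 0.22 (SE; edgeR adjusted p = 0.0203), short of the fold required for a call, in a comparison where 5.74% of all genes were called. With library totals in place of TMM, which moved the median of all genes by -0.28 at 11 dpf against 2 dpf, thrb stood at 0.87 (adjusted p = 0.00623) and its call was lost, while the other 22 of 23 alternatives kept it.

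The receptor gene thrab had 19.2 and 22.3 CPM at 11 dpf, against 8.04 and 12.5 CPM at 2 dpf, which did not overlap (log2 fold change 1.005 ± 0.18, SE; edgeR adjusted p = 0.000303). Its change sat at the fold threshold and fell short of it in 4 alternatives, with 0.73 with library totals, 0.998 without the filter, 0.73 when replicate 1 of 2 dpf was left out and 0.90 when replicate 2 of 11 dpf was. In order of level its highest stage was 9 dpf, at 31.2 and 34.5 CPM, whereas that of thrb was 10 dpf. The share of thrb in the counts of thrb and thrab together was 47.4% and 47.0% at 11 dpf, against 48.6% and 42.1% at 2 dpf. It ranged from 29.2% to 48.6% over all libraries and is not scaled by gene length. Among the 15 receptors and cofactors tested, thrb and thrab were the 2 called at 11 dpf against 2 dpf, a share below the 20.8% of all genes. At 8 dpf against 6 dpf, where 5.74% of all genes were called, 2 of the 15 were called, both higher. One was ncor1, a corepressor gene whose product silences target genes when the receptors hold no hormone, with a log2 fold change of 1.02 ± 0.15 (SE; edgeR adjusted p = 0.000216). Its change sat at the fold threshold, and the call was lost without replicate 2 of 6 dpf (0.93), with library totals (0.81) and with at least 10 counts in every library (0.997).

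Among genes for carriage, uptake and deiodination of thyroid hormone, the carrier ttr rose early and stayed high. Of the 10 tested genes of this list, dio2 and dio3b included, 3 were called higher and 1 lower at 11 dpf against 2 dpf, where 20.8% of all genes were called, with a median log2 fold change of 0.43, against -0.06 over all genes. Transthyretin, ttr, carries thyroid hormone in blood and is made in the liver of fish larvae. It had 86.2 and 87.2 CPM at 4 dpf, against 9.31 and 14.6 CPM at 2 dpf (log2 fold change 2.85 ± 0.18, SE; edgeR adjusted p = 3.58e-09), and stayed between 48.1 and 100.9 CPM thereafter. Of the 9 hepatocyte markers beside it, 3 were called higher at 4 dpf than at 2 dpf, namely ahsg2 (log2 fold change 3.20), fabp10a (3.17) and cp (2.14), and the median of the 9 was 0.15, against 0.004 over all genes. In that comparison 19.8% of all genes were called. The call of fabp10a was lost without replicate 1 of 4 dpf (0.59, adjusted p = 0.17). Their sum was 3560 to 4489 CPM at 4 dpf, against 5683 to 6993 CPM at 2 dpf, and was carried by apob, the 1 marker called lower, which had 3265 and 1770 CPM at 4 dpf, against 4299 and 6043 CPM at 2 dpf. None of the 9 was at 0 in both libraries of a stage, and the part of hepatocyte content in the level of ttr was not tested.

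Genes known to respond to thyroid hormone in other vertebrates gave mixed results. Of 10 tested, 3 rose and 2 fell at 4 dpf against 2 dpf, where 19.8% of all genes were called. Both falls missed the fold required without replicate 2 of 4 dpf (-0.97 and -0.81). Among the rises, that of mmp13b was lost without replicate 2 of 2 dpf (1.21). At 11 dpf against 2 dpf 3 rose and none fell, where 20.8% were called, with a median log2 fold change of 0.22, against -0.06 over all genes. The call of mmp13b at these stages was lost in 4 of 22 alternatives. The largest rises were those of the myelin basic protein genes mbpa and mbp, which are also markers of myelinating glia. At 11 dpf mbpa had 113.8 and 113.9 CPM, against 2.12 and 3.95 CPM at 2 dpf (log2 fold change 5.21 ± 0.25, SE; edgeR adjusted p = 6.86e-11). For the same stages mbp had 179.6 and 203.8 CPM, against 17.2 and 16.1 CPM (3.53 ± 0.28, SE; edgeR adjusted p = 3.59e-08). The gene klf9, a direct target of the receptors in frogs and mammals, stood at 15.2 and 15.1 CPM at 11 dpf, against 20.7 and 11.6 CPM at 2 dpf (-0.09 ± 0.29, SE; edgeR adjusted p = 0.825). At 4 dpf klf9 had 18.0 and 40.4 CPM, with a log2 fold change of 0.90 ± 0.27 against 2 dpf (SE; edgeR adjusted p = 0.0134), short of the fold required, and over the 7 stages its adjusted p was 0.0122. This gene was chosen after its values were seen.

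**Figure D4:**
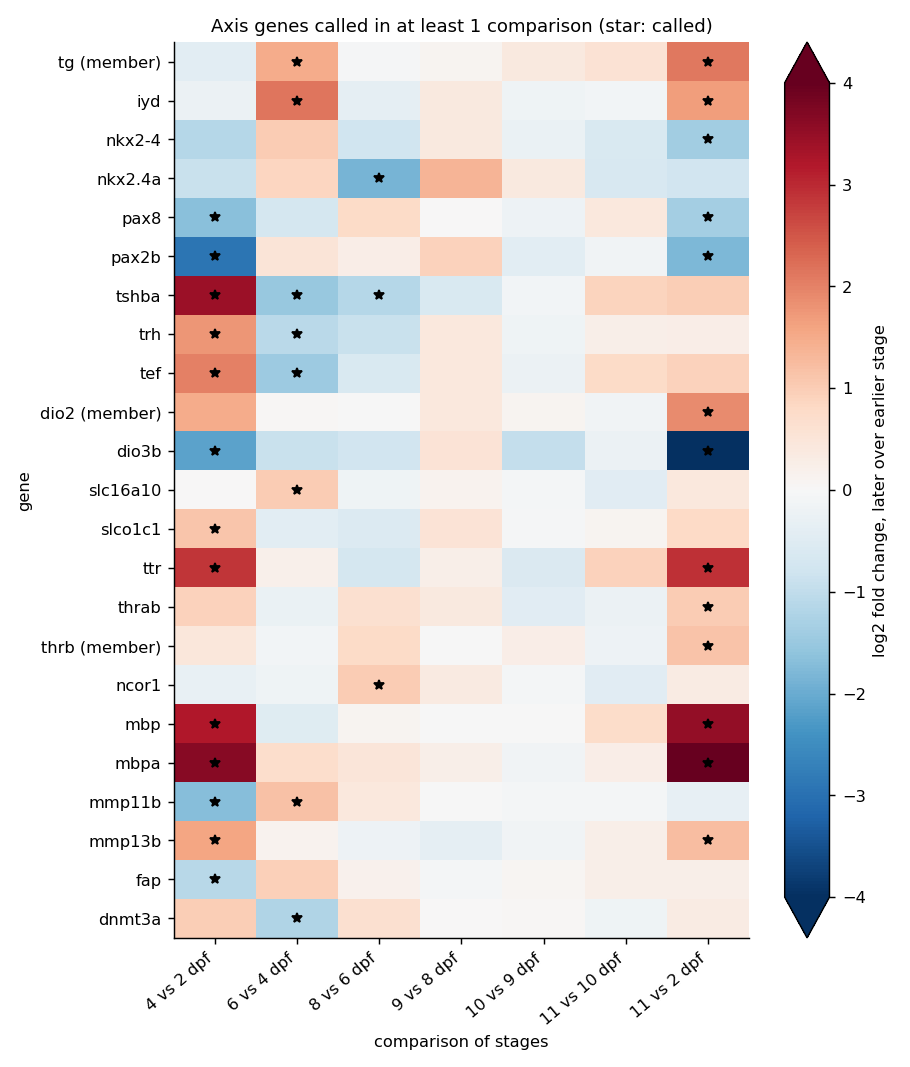
Log2 fold changes of 23 of the 25 axis genes that were called at least once, 3 of them tg, dio2 and thrb, in the 7 comparisons of stages, later over earlier (2 of the 25 are not drawn). The colour scale is capped at 4 in either direction. Stars mark their 37 calls, which lie in the comparisons up to 8 dpf against 6 dpf and in 11 dpf against 2 dpf.

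Counted over the comparisons, the 3 tested genes tg, dio2 and thrb were called 0 of 3 at 4 dpf against 2 dpf (background 19.8% of all genes) and 1 of 3 at 6 dpf against 4 dpf (11.3%). They were called 0 of 3 at 8 dpf against 6 dpf (5.74%) and 3 of 3 at 11 dpf against 2 dpf (20.8%). In the comparisons of 4 with 2 dpf and of 8 with 6 dpf, where none was called, the unadjusted edgeR p was under 0.05 for 1 gene each (dio2 and thrb), and DESeq2 also called 0, although at 8 dpf against 6 dpf it gave no adjusted p for dio2. The later steps gave 0 of 3 calls each, where 1.28% of all genes were called at 9 dpf against 8 dpf, 1.01% at 10 dpf against 9 dpf and 1.14% at 11 dpf against 10 dpf. Their unadjusted edgeR p was under 0.05 for 0, 0 and 1 genes, the last being tg. DESeq2 called 0 in each, but it gave an adjusted p for tg and thrb alone, not for dio2. The comparison of 11 dpf with 2 dpf shares its libraries with the first and last steps and is not independent of them. Over all 7 stages, all 3 had an adjusted p under 0.05, as did 75.3% of all genes tested, with 1.93e-06 for tg, 0.000412 for thrb and 0.0481 for dio2 (edgeR F test). That of dio2 was lost in 14 of 20 alternatives, among them the likelihood ratio test of DESeq2 (adjusted p = 0.148), library totals (0.115), the pairs summed (0.0666), the replicate block (0.0634) and 9 of the 14 fits with 1 library left out (up to 0.272, without replicate 2 of 2 dpf). Those of tg and thrb held in all 21.

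In the wider axis, as over all genes, the calls between neighbouring stages lay mainly at the early steps. Of its 53 tested genes beside tg, dio2 and thrb, 8 rose and 5 fell at 4 dpf against 2 dpf, 3 rose and 4 fell at 6 dpf against 4 dpf, and 2 rose and 2 fell at 8 dpf against 6 dpf. These are 13, 7 and 4 calls of 53, where 19.8%, 11.3% and 5.74% of all genes were called. The 3 later steps span 1 day each, against 2 days for each earlier step, so their numbers of calls are not for like intervals. In these later steps, where 1.28%, 1.01% and 1.14% of all genes were called, none was called. The unadjusted edgeR p was under 0.05 for 7, 4 and 9 genes. DESeq2 also called 0, with no adjusted p for 25, 17 and 24 of the wider axis genes. At 11 dpf against 10 dpf, ttr (0.91, edgeR adjusted p = 0.00556) and tef (0.78, adjusted p = 0.0433) passed on p and missed the fold required, and 1 gene was called when either library of 4 dpf was left out. At 11 dpf against 2 dpf 7 rose and 4 fell, where 20.8% of all genes were called, with a median log2 fold change of 0.10, against -0.06 over all genes. In all, 22 of the 53 were called at least once, and none of their calls turned direction in an alternative. The matching share of all genes is not given here.

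The genes most like each member were sought by Pearson correlation of stage mean log2 CPM over the 7 stages, among 4778 named genes with a range of stage means over 1 on the log2 scale. For tg they were nfatc2 (r = 0.987), bgn (0.983) and arg1 (0.982). For dio2 they were vegfd (0.982), ptx3 (0.979) and crygn (0.977), and for thrb they were armc8 (0.990), insc (0.985) and tmem47 (0.983). With 7 points that share their libraries, such values are common, and 106, 116 and 142 genes had an r above 0.9 with tg, dio2 and thrb in that order.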

How the data were processed

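The authors depleted ribosomal RNA, built NEBNext Ultra libraries, used Trimmomatic 0.36 for trimming, STAR 2.7.0 for alignment to genome GENO_Phyp_1.0 and HTSeq for counting reads per gene (mode and strand setting not given in the sources used here). The deposited table holds raw counts, whole numbers, for 21656 genes and 14 libraries, and 0 sample columns were unused. Overlapping or antisense genes and near-identical copies could share reads.

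The counts were tested with edgeR 4.0.16 in R 4.3.3 (filterByExpr, TMM, 1 quasi-likelihood fit of all 14 libraries, Benjamini-Hochberg adjustment over 19310 genes, calls at adjusted p under 0.05 where the log2 fold change was beyond 1 in size). Standard errors were taken as that change over the root of its F value. Alternatives were DESeq2 1.42.0, RLE or library-total scaling, other filters, only the stages compared, pairs of 6, 9 and 11 dpf summed, a replicate block and each library left out. The code was tested on simulated data. Python 3.11.15 made the summaries.

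Of 11307 rows with a locus identifier, 10538 were found in the RefSeq table and 6917 had a symbol there. That table describes another assembly, so no coordinates or sequences are given. Named from the wider lists were, by size, up to 3 called genes per list and comparison, and any gene of the synthesis, pituitary, deiodinase and receptor lists by its level. Members and lists were chosen with earlier results of these data known. The replicate numbers do not pair the libraries. Some genes of the lists are counted but not reported here by name.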

Additional observations from a re-analysis of the deposited data

How the results depend on the processing

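No called change of the 3 tested genes reversed in any alternative. Their count at 4 dpf against 2 dpf was 0, and 0 to 1 when 1 library was left out, being 1 without either library of 6 dpf (dio2, log2 fold change 1.50, adjusted p 0.044 and 0.0444). Their count at 11 dpf against 10 dpf was 0. DESeq2 with an unadjusted p called tpo there, which is not among these 3 because the main edgeR fit filtered it out. A replicate block was fitted although numbers do not pair the libraries (correlation of deviations between same-numbered libraries -0.159 to 0.021). Under it tg stood at 1.51 (adjusted p = 0.000278) at 6 dpf against 4 dpf and at 2.11, dio2 at 1.90 and thrb at 1.14 at 11 dpf against 2 dpf, and none of these 4 calls changed. Over the 7 stages dio2 lost its call under the block (adjusted p = 0.0634), so that 2 of 3 genes were called, and the wider axis had 35 calls in place of 36. It also lost slc16a10 at 6 dpf against 4 dpf (0.998, just under the fold required). Of 790 alternative values of the 35 other axis calls, 731 kept the call and 59 lost it. These values include fits that left out a library of a stage not compared. Of the 35 calls, 17 were kept under every alternative and the others were lost in at least 1. The calls of the wider axis at 8 dpf against 6 dpf numbered 4, against 2 by DESeq2, 1 with at least 10 counts in every library, 1 with the pairs summed and 1 to 2 with a library of these stages left out. With at least 10 counts in every library they numbered 4 in place of 7 at 6 dpf against 4 dpf and 5 in place of 11 at 11 dpf against 2 dpf, with fewer genes tested and slc16a10 at 0.994. At 11 dpf against 10 dpf the wider axis had 1 call without either library of 4 dpf and 3 by DESeq2 with an unadjusted p. Summing the pairs left 377 of 1108 calls over all genes at 8 dpf against 6 dpf, 11 of 247, 37 of 195 and 1 of 221 in the later steps, and 9467 of 14541 over the 7 stages. Over all alternatives the later steps had 11 to 492, 37 to 432 and 1 to 467 calls, the highest by DESeq2 with an unadjusted p, and with at least 10 counts in every library 733 genes were called at 8 dpf against 6 dpf and 2675, in place of 4025, at 11 dpf against 2 dpf. With library totals, against TMM, the share of higher calls over all genes was 45.1% against 69.7% (4 over 2 dpf), 20.7% against 52.6% (8 over 6 dpf), 65.6% against 36.0% (9 over 8 dpf), 61.6% against 78.5% (10 over 9 dpf), 77.5% against 61.1% (11 over 10 dpf) and 38.0% against 60.6% (11 over 2 dpf), and 52.3% against 42.6% (6 over 4 dpf). Depth limits tpo and tshr, with 82 and 51 counts in all, and dio2, with 147.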
